A study of Mus musculus with 18 samples.

Results

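Inguinal white adipose tissue (iWAT), a subcutaneous depot of the groin, was compared with epididymal white adipose tissue (eWAT), the visceral depot attached to the epididymis, in 12 polyA-selected RNA-seq libraries from 6 mice. The libraries were chosen by their tissue label, and they were 12 of the 18 libraries of the series. Each of the 6 mice gave 1 iWAT and 1 eWAT library. All mice carried the C57BL/6N-ΔGm15551 strain label, were 12 weeks old and were of 2 genotypes, with 3 wild type mice (wt) and 3 knockout mice (ko) that lack exon 1 of the long noncoding RNA (lncRNA) Gm15551, deleted with CRISPR/Cas9. The deletion was present in the whole animal and not in 1 cell type. Epididymal fat exists in males, and whole tissue pieces were used, so each library mixed adipocytes with progenitors, vessels, nerves, immune cells and any neighbouring tissue taken along. In such bulk samples fewer cells of a type and less RNA per cell cannot be told apart.

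Subcutaneous and visceral fat arise from different embryonic mesenchyme and keep different sets of developmental transcription factors in the adult. Visceral depots are wrapped in a mesothelium, the flat epithelium of the abdominal cavity, and inguinal fat of rodents lies under the skin, contains an inguinal lymph node and can turn on a thermogenic program in multilocular "beige" adipocytes. A comparison of whole depots reads both the adipocytes and the cells around them.

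The libraries held 14997901 to 34389586 counts, and 3 counts, taken as the limit of detection per library, were worth 0.0879 to 0.188 CPM (counts scaled to 1 common library size). Gm15551 had 59 to 316 counts in the wt iWAT libraries, 181 to 237 in the wt eWAT libraries and 0 to 4 in the 6 ko libraries of both tissues. Of the 12 libraries, 4 stood apart in markers of neighbouring tissues. Lymph node markers summed to 4443 CPM in iWAT of wt replicate 3 and to 1791 CPM in iWAT of ko replicate 2, against 124 to 252 CPM in the other iWAT libraries and 106 to 704 CPM in eWAT. Skeletal muscle markers summed to 6605 CPM in iWAT of ko replicate 1 and to 26.5 to 77.9 CPM elsewhere, and epididymis markers to 9052 CPM in eWAT of ko replicate 3 and to 50.4 to 136 CPM in the other eWAT libraries. The counts of most gene lists below are given again without these 4 libraries, either paired, which leaves wt replicates 1 and 2, or unpaired, which leaves 3 iWAT and 5 eWAT libraries. Another fit kept all 12 libraries, unpaired, with the sums of lymph node, skeletal muscle and epididymis markers as covariates. The epididymis sum itself separated the depots, with 2.93 to 19.1 CPM in iWAT and 50.4 to 9052 CPM in eWAT. The fit with covariates can therefore absorb part of the depot difference, and its changes cannot be assigned to other tissue. Values are TMM-scaled CPM, log2FC is iWAT over eWAT within mice with its standard error (SE, n = 6 mice), and a gene was called at an adjusted p under 0.05.

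All 7 depot markers separated iWAT from eWAT. Tbx15, a T-box transcription factor (chr3:99240381-99354259, plus strand, GRCm38), ranged from 18.2 to 34.3 CPM (median 27.6) in iWAT and from 0.0584 to 0.325 CPM (median 0.135) in eWAT (log2FC 7.30 ± 0.34, adjusted p = 0.000292). Hoxc10, a posterior homeobox factor, ranged from 16.8 to 43.5 CPM (median 36.5) in iWAT and from 0.0584 to 3.34 CPM (median 0.219) in eWAT (log2FC 6.23 ± 0.81, adjusted p = 0.00773). Mmp3, the matrix protease stromelysin-1, ranged from 47.0 to 104 CPM (median 52.5) in iWAT and from 0 to 0.488 CPM (median 0.163) in eWAT (log2FC 8.47 ± 0.55, adjusted p = 0.000608). In each of these 3 genes the lowest iWAT library was above the highest eWAT library. Lhx8, a LIM homeobox factor (chr3:154306294-154330659, minus strand), ranged from 4.13 to 8.44 CPM (median 5.69) in iWAT and from 0 to 0.0601 CPM (median 0) in eWAT. With no eWAT library above 1 count, it was at least 36.9-fold higher in iWAT (adjusted p = 0.000751).

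The other 3 markers were at or under 3 counts in every iWAT library. Upk3b, a uroplakin of urothelium and mesothelium (chr5:136038496-136046487, plus strand), ranged from 16.6 to 74.5 CPM (median 43.4) in eWAT and from 0 to 0.0418 CPM (median 0) in iWAT, at least 343-fold lower in iWAT (adjusted p = 5.54e-05). Wt1, a zinc finger factor of mesothelium and its descendants (chr2:105126529-105173616, plus strand), ranged from 6.39 to 17.3 CPM (median 13.9) in eWAT and from 0 to 0.117 CPM (median 0.0699) in iWAT, at least 99.6-fold lower (adjusted p = 0.000678). Tcf21, a basic helix-loop-helix factor of visceral mesenchyme (chr10:22817281-22820174, minus strand), ranged from 3.68 to 7.86 CPM (median 4.84) in eWAT and from 0 to 0.0935 CPM (median 0.0196) in iWAT, at least 39.9-fold lower (adjusted p = 0.00129). All 7 markers, and the direction of each, were called again in every fit on mice of both genotypes that tested them and without the 4 libraries. The fit on genes with at least 10 counts in every library tested none of them. The tissue labels matched these markers in all 12 libraries.

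**Figure D1:**
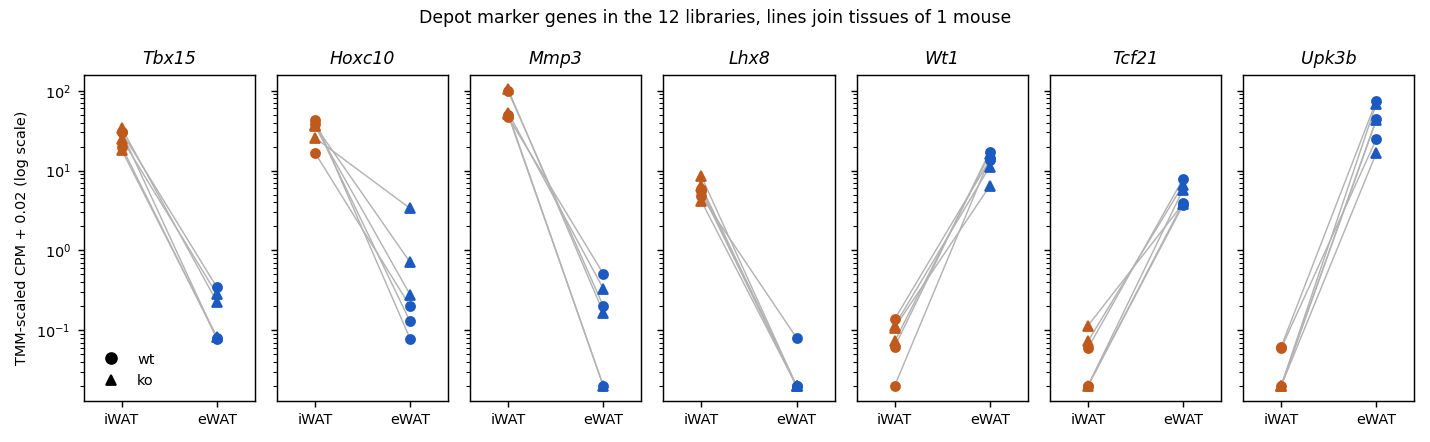
TMM-scaled CPM of the 7 depot markers (vertical axis, log scale, 0.02 added so that 0 can be drawn) in iWAT and eWAT, with lines joining the libraries of a mouse, circles for wt and triangles for ko. In each panel the 6 iWAT points and the 6 eWAT points do not overlap, as for Tbx15 with a lowest iWAT value of 18.2 and a highest eWAT value of 0.325.

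The start sites of these markers are shown because near-absence in 1 depot marks the finding, and 4 of the 7 markers had an entry in the RefSeq promoter windows (GRCm38.p6). Each line gives 80 bases before and 50 bases after the start site, 5′ to 3′ on the strand of the gene, with every CG and any TATAAA in capitals.
Lhx8 (chr3:154330511-154330640, minus strand): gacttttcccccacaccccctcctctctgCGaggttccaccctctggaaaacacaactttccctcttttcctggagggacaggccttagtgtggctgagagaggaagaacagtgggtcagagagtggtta
Mmp3 (chr9:7445742-7445871, plus strand): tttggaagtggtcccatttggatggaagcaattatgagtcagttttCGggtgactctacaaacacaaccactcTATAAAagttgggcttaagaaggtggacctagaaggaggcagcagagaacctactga
Tcf21 (chr10:22820094-22820223, minus strand): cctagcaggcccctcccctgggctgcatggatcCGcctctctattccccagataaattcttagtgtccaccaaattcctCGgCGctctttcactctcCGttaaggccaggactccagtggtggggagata
Upk3b (chr5:136038416-136038545, plus strand): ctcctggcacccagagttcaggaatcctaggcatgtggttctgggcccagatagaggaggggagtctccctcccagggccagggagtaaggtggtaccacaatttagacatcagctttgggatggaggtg
Over the 300 bases from 250 before to 50 after the start, Mmp3 held 1 CG, Upk3b 2, Lhx8 4 and Tcf21 8. The median over promoters was 11 CG for the 296 matched of 410 genes higher in iWAT, 17 for the 289 matched of 415 genes lower, and 19 for the 11291 matched of 15974 genes tested and not called. Over all 32851 promoter windows, which include genes not tested, it was 7. TATAAA, searched on both strands, stood in 12.6% of the promoters of higher genes, 8.35% of those of lower genes, 7.69% of those of genes not called and 13.6% of all 32851 promoter windows. Of the 4 markers, Mmp3 held it in the bases shown.

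Across the transcriptome the depots differed in many genes, with similar numbers called in each direction. Of the 16799 genes tested, 410 were higher in iWAT (2.44% of genes tested) and 415 were lower (2.47%). The median log2FC of all genes was -0.0061, a value that the TMM scaling holds near 0. Among the higher genes 317 differed over 2-fold and 87 over 8-fold, and among the lower genes 256 and 50. The 6 iWAT and 6 eWAT libraries did not overlap in 822 genes (4.89% of genes tested), 267 of them called higher and 245 called lower. The first principal component of the 1000 most variable genes (37.9% of the variance) placed every iWAT library on 1 side and every eWAT library on the other. Without the 4 libraries named above, 577 genes were called in the 2 remaining pairs (325 higher, 252 lower) and 1650 unpaired (783 higher, 867 lower). The share of all genes called differed between fits, and counts of list members are to be read against the share of the same fit. It was 1.89% higher and 1.46% lower in the 2 pairs, 4.47% and 4.95% unpaired, 6.43% and 6.57% with DESeq2, 8.32% and 7.61% with the covariates, 1.74% and 1.12% without the lymph node libraries and 5.7% and 4.5% in a fit on all 18 libraries. When 1 mouse was left out it ranged from 0.795% to 2.3% higher and from 0.706% to 2.64% lower, lowest without wt replicate 2. A gene near 0 in 1 depot passes the filter on low counts only through the other depot, so that its direction is fixed and counts over such members are descriptions. Among the 14304 genes with at least 10 counts in every library 2.04% were higher and 2.43% lower. Of the 825 calls, 313 were made again in the first of these fits and 587 in the second, and in neither did a called gene change sign.

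**Figure D2:**
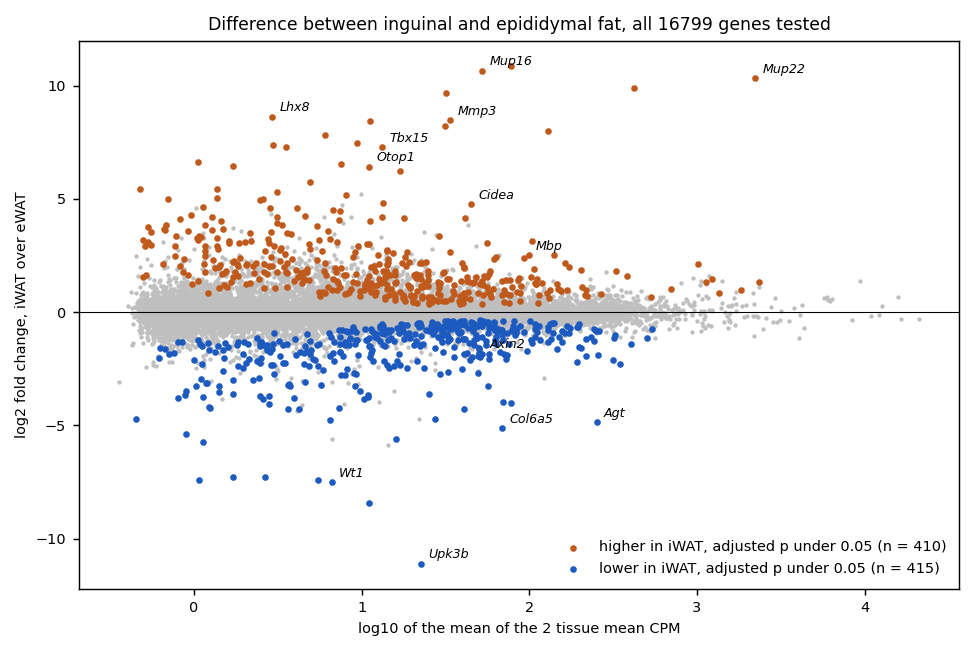
log2FC of iWAT over eWAT (vertical axis) against the log10 of the mean of the 2 tissue means in CPM (horizontal axis) for all 16799 genes tested, with called genes in colour and some named. The 410 genes higher and the 415 genes lower in iWAT spread over most expression levels, with Upk3b at -11.10 and Mup16 at 10.66 among the farthest from 0. Both had at most 3 counts in every library of the lower depot, so these fitted values are less certain than their bounds.

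Transcription factors of embryonic patterning differed in both directions. Of 47 developmental factors tested, 8 were higher in iWAT (17.0%, against 2.44% of all genes) and 9 lower (19.1%, against 2.47%), with a median log2FC of 0.0075. Of the 24 with at least 10 counts in every library 2 were higher and 4 lower. The depot markers Tbx15 and Lhx8 were among the higher factors and Wt1 and Tcf21 among the lower. Wt1 and Bnc1 are counted again with the mesothelial genes. Shox2, a homeobox factor of limb and body wall mesenchyme, ranged from 11.1 to 37.8 CPM (median 26.4) in iWAT and from 0.376 to 1.14 CPM (median 0.952) in eWAT (log2FC 4.81 ± 0.35, adjusted p = 0.000907). Prrx1, another homeobox factor of limb mesenchyme, ranged from 40.4 to 111 CPM (median 69.2) in iWAT and from 11.5 to 38.1 CPM (median 24.7) in eWAT (log2FC 1.55 ± 0.10, adjusted p = 0.000592), and En1, which marks ventral limb ectoderm and part of the dermis, ranged from 2.23 to 6.13 CPM (median 4.98) in iWAT and from 0 to 0.421 CPM (median 0.117) in eWAT (log2FC 4.94 ± 0.46, adjusted p = 0.00221). In these 3 genes the depots did not overlap. Tbx5 (log2FC 3.48), the forelimb T-box factor, Msx1 (1.66) and Eya4 (1.69) were called in the same direction.

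The factors lower in iWAT were led by genes at or near 0 there. Alx1, a homeobox factor of craniofacial mesenchyme, ranged from 1.38 to 3.05 CPM (median 1.997) in eWAT and from 0 to 0.0418 CPM (median 0) in iWAT, which is at least 16.2-fold lower (adjusted p = 0.000808). Bnc1, basonuclin 1, a zinc finger protein of mesothelium and keratinocytes, was at least 25.8-fold lower (adjusted p = 0.00431). Gata5 (-3.80), a GATA factor of heart and visceral tissues, Nr2f1 (-1.28), Bnc2 (-1.44) and Foxc1 (-1.10) were also called lower. Without wt replicate 2, Alx1 was not called (adjusted p = 0.091). Without the 4 libraries, paired, 5 of the developmental factors were higher and 8 lower, and DESeq2 called 14 higher and 17 lower.

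The Hox genes, which specify position along the body axis, were read by their place in the cluster. Of 28 Hox genes tested, 4 were higher in iWAT and 1 was lower, against 2.44% and 2.47% of all genes, with a median log2FC of -0.53. DESeq2 called 4 higher and 7 lower, and of the 22 with at least 10 counts in every library 1 was higher and 1 lower. The 4 higher genes were all of paralog groups 9 and 10. Hoxa9 ranged from 20.2 to 50.2 CPM (median 31.7) in iWAT and from 0.300 to 7.53 CPM (median 1.80) in eWAT (log2FC 4.18 ± 0.65, adjusted p = 0.0148), and Hoxa10 ranged from 9.26 to 19.7 CPM (median 16.6) in iWAT and from 0 to 3.25 CPM (median 0.330) in eWAT (log2FC 5.20 ± 0.93, adjusted p = 0.0234). Neither overlapped between depots, whereas Hoxc9 did, ranging from 14.5 to 33.4 CPM (median 23.6) in iWAT and from 3.62 to 14.8 CPM (median 7.69) in eWAT (log2FC 1.64 ± 0.36, adjusted p = 0.0476). Hoxc4 was the lower member and ranged from 8.66 to 15.9 CPM (median 11.6) in iWAT and from 18.6 to 46.2 CPM (median 29.8) in eWAT (log2FC -1.45 ± 0.25, adjusted p = 0.0208). Of the 10 genes of groups 1 to 4, 9 had a negative log2FC (median -0.68), as had 9 of the 11 genes of groups 5 to 8 (median -0.69), while 5 of the 7 genes of groups 9 to 13 had a positive one (median 1.64). In eWAT of ko replicate 3 the Hox genes summed to 1192 CPM, against 469.7 to 645 in the other eWAT libraries. The count was 4 higher and 1 lower again in the 2 pairs left without the 4 libraries, where the median was -0.14, and unpaired it was -0.06. With the covariates 9 were higher and 6 lower, against 8.32% and 7.61% of all genes in that fit, and the median was positive (0.45). The calls of single genes were less firm: without wt replicate 2 only 1 Hox gene was called, 2 without ko replicate 1 and 3 without wt replicate 1, and Hoxc9 lost its call in 5 of the 6 fits that left out a mouse.

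**Figure D3:**
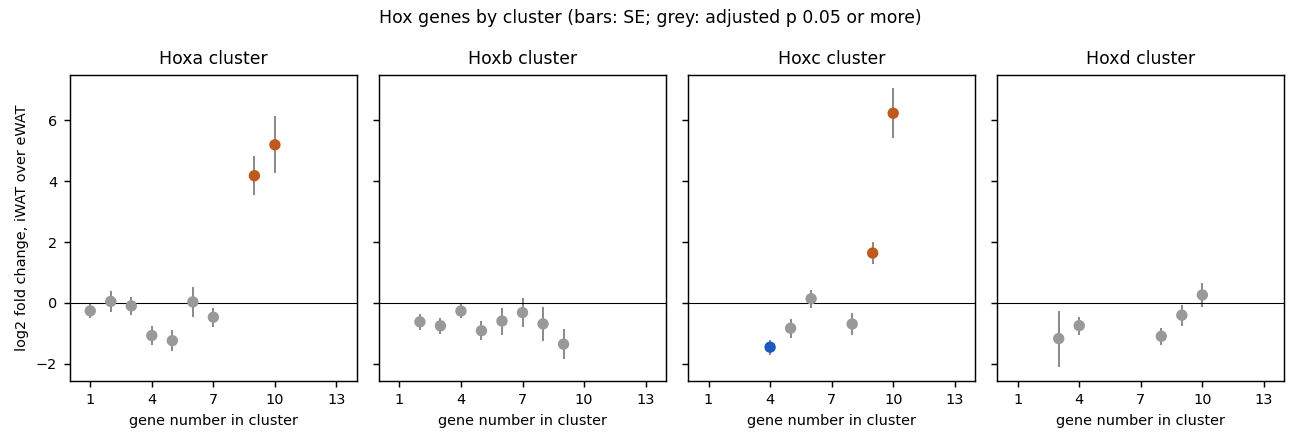
log2FC of iWAT over eWAT with its SE (vertical axis) for the 28 tested Hox genes against their number in each of the clusters (horizontal axis), coloured where called and grey otherwise. Hoxc10 at 6.23, Hoxa10 at 5.20, Hoxa9 at 4.18 and Hoxc9 at 1.64 stand above 0, and most genes of lower number lie under 0.

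Mesothelial genes were lower in iWAT. Of 19 markers tested, 11 were called lower and none higher, with a median log2FC of -2.59, against 2.47% of all genes called lower. Some of these were near 0 in iWAT and passed the filter through eWAT, and of the 9 with at least 10 counts in every library 6 were lower. Besides Upk3b, Wt1 and Bnc1, these were Upk1b, Nkain4, Pkhd1l1, Aldh1a2, Rspo1, Msln, Gpm6a and Lrrn4. Upk1b, a second uroplakin, ranged from 4.58 to 17.1 CPM (median 12.1) in eWAT and from 0 to 0.243 CPM (median 0.0261) in iWAT (log2FC -7.39 ± 0.76, adjusted p = 0.00293). Msln, mesothelin, a surface protein of mesothelial cells, ranged from 7.65 to 41.5 CPM (median 15.6) in eWAT and from 0.626 to 2.62 CPM (median 1.09) in iWAT (log2FC -3.82 ± 0.56, adjusted p = 0.0123), and Nkain4, a partner of the sodium pump, ranged from 3.07 to 9.17 CPM (median 7.76) in eWAT and from 0.175 to 0.514 CPM (median 0.377) in iWAT (log2FC -4.27 ± 0.24, adjusted p = 0.000375). In all 3 genes every iWAT library was under every eWAT library. The keratins of simple epithelia, which the mesothelium shares with the epididymis and glands, were not called. Krt8 ranged from 1.41 to 409 CPM (median 4.08) in eWAT and from 0 to 36.0 CPM (median 9.93) in iWAT (adjusted p = 0.575), with its highest value in eWAT of ko replicate 3, the library with epididymis markers. Slpi, a secreted protease inhibitor, ranged from 9.53 to 70.1 CPM (median 26.5) in eWAT and from 0.0391 to 71.7 CPM (median 0.575) in iWAT (adjusted p = 0.133), with its highest iWAT value in wt replicate 3, the library with the most lymph node markers. Without the 4 libraries, 15 of the 19 markers were called lower in the 2 pairs, and Slpi fell by 8.82 on the log2 scale there. Without wt replicate 2, 8 were called.

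Genes of Schwann cells, the glia that wrap peripheral nerve fibres, were higher in iWAT. Of 10 markers, 8 were called higher and none lower, with a median log2FC of 2.96, against 2.44% of all genes called higher. Of the 5 with at least 10 counts in every library 3 were higher. Mbp, myelin basic protein, ranged from 95.9 to 270.4 CPM (median 167) in iWAT and from 16.7 to 35.2 CPM (median 29.5) in eWAT (log2FC 2.53 ± 0.14, adjusted p = 0.000375). Prx, periaxin, which stabilises the myelin sheath, ranged from 23.2 to 86.8 CPM (median 49.1) in iWAT and from 3.61 to 6.36 CPM (median 4.39) in eWAT (log2FC 3.37 ± 0.22, adjusted p = 0.000605). The depots did not overlap in any of the 8 genes called. Sox10, the transcription factor of the glial lineage, had a log2FC of 4.51, Cdh19 3.60, S100b 2.99 and Mag 2.93. Fa2h, the hydroxylase that makes the 2-hydroxy lipids of myelin and no member of the list, ranged from 2.02 to 10.6 CPM (median 4.43) in iWAT and from 0.0601 to 0.325 CPM (median 0.223) in eWAT (log2FC 4.60 ± 0.23, adjusted p = 0.000375). Ngfr, the low-affinity nerve growth factor receptor, had a log2FC of 2.17 (adjusted p = 0.0739) and Pmp22 of 0.48 (adjusted p = 0.190). Summed over the list, iWAT libraries held 483 to 1150 CPM and eWAT libraries 116 to 277 CPM. The count was 8 without the 4 libraries and at least 8 in each fit that left out a mouse.

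Large differences were found in the major urinary proteins, lipocalins that bind pheromones and that liver secretes into blood and urine. The annotation had 22 Mup rows, 11 of which passed the filter on low counts. They passed it through their iWAT libraries, as eWAT values were near 0, so that their common direction was set by the filter and is given as a description, with log2FC from 3.05 to 10.89 and adjusted p from 2.22e-05 to 0.00375. Summed over the family, iWAT held 869.9 to 14059 CPM (median 5627) and eWAT 1.63 to 11.96 CPM (median 3.73). Within mice the ratio ranged from 365.6 to 3047. The level differed 16.2-fold between iWAT libraries, highest in wt replicate 2 and lowest in wt replicate 1 and ko replicate 1. Mup22 (chr4:60817589-60821463, minus strand) took 76.4 to 78.1% of the sum in every iWAT library and ranged from 677 to 10823 CPM (median 4347) in iWAT and from 0.434 to 8.47 CPM (median 1.94) in eWAT (log2FC 10.32 ± 0.73, adjusted p = 0.000808). Mup19 ranged from 142 to 2129 CPM (median 854) in iWAT and from 0 to 1.86 CPM (median 0.474) in eWAT (log2FC 9.92 ± 0.99, adjusted p = 0.00284). Mup16, with 3 counts or fewer in each eWAT library, was at least 660.1-fold higher in iWAT (adjusted p = 2.22e-05). The Mup genes are near-identical copies on chromosome 4, and the estimated counts divide reads among them, so the family sum is more certain than any member. Mup16, Mup1, Mup11, Mup10, Mup14 and Mup19 were not called in the fit with covariates, and the fit on genes with at least 10 counts in every library tested neither these nor Mup22.

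The Mup promoters are shown because the family held several of the largest log2FC. Of 14 Mup promoter windows in the RefSeq table, 13 held TATATAA on either strand, against 3.24% of all 32851 windows. The windows of 6 that held it on the strand of the gene are given, 5′ to 3′. Each shows 87 bases from 45 before the motif to 35 after it, with the motif in capitals.
Mup19 (chr4:61782214-61782300, minus strand): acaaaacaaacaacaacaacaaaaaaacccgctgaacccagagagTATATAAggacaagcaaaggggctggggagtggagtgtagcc
Mup11 (chr4:60662356-60662442, minus strand): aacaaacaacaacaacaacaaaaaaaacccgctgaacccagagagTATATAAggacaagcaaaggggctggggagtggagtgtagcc
Mup10 (chr4:60582144-60582230, minus strand): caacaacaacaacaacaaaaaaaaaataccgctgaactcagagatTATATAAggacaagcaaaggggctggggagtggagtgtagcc
Mup3 (chr4:62087287-62087373, minus strand): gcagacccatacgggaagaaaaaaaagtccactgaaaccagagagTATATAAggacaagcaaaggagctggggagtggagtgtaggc
Mup4 (chr4:59960655-59960741, minus strand): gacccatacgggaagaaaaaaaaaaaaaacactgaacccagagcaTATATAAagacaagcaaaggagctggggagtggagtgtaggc
Mup21 (chr4:62150808-62150894, minus strand): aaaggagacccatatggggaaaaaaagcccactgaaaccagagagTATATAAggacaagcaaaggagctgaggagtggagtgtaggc
Over the 42 bases from the motif on, Mup11 and Mup10 were identical to Mup19 (42 of 42 bases), Mup3 shared 40 and Mup4 and Mup21 shared 39. Mup19, Mup11, Mup10 and Mup3 were called higher in iWAT, while Mup4 and Mup21 were too low to test, with at most 0.0468 and 0.262 CPM in an iWAT library. Of the windows compared but not printed, those of Mup2 (42 of 42 bases) and Mup9 (41) belonged to genes called higher. Mup15 and Mup17 (42), Mup18 (41) and Mup6 (39) did not pass the filter. Identity to Mup19 therefore did not separate called members from those not tested. The motif stood before members that were called and before members too low to test.

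Of 21 thermogenic genes tested, 9 were called higher in iWAT and none lower, against 2.44% of all genes called higher. Of the 13 with at least 10 counts in every library 6 were higher. The median log2FC was 1.80, and 4 of the 21 had a negative value. Cidea, a lipid droplet protein of brown and beige adipocytes, ranged from 12.7 to 182 CPM (median 65.2) in iWAT and from 0.878 to 4.26 CPM (median 2.36) in eWAT (log2FC 4.77 ± 0.55, adjusted p = 0.00456). Cox8b, a subunit of cytochrome oxidase of brown fat and muscle, ranged from 13.996 to 126 CPM (median 81.8) in iWAT and from 1.505 to 8.18 CPM (median 4.13) in eWAT (log2FC 4.14 ± 0.61, adjusted p = 0.0123). Otop1, a proton channel, ranged from 1.33 to 33.7 CPM (median 25.5) in iWAT and from 0 to 0.672 CPM (median 0.252) in eWAT (log2FC 6.42 ± 0.41, adjusted p = 0.000597). The depots did not overlap in these 3 genes, and in each the lowest iWAT value was that of wt replicate 3, the library with the most lymph node markers, whose part in these values was not tested. Kcnk3, a background potassium channel of brown adipocytes, had a log2FC of 3.04, Tmem26, a surface protein used as a beige marker, 3.52, Dio2, which activates thyroid hormone, 2.06, and Cpt1b, which carries fatty acids into mitochondria, 1.80. Prdm16, a coregulator of the brown fate, ranged from 6.88 to 33.7 CPM (median 17.8) in iWAT and from 6.43 to 11.8 CPM (median 9.25) in eWAT (log2FC 1.02 ± 0.21, adjusted p = 0.0390), and the depots overlapped. Lhx8 was a member as well. The summed CPM of the list, in which genes such as Adrb3 that were not called weigh most, did not separate the depots, with 561 to 1617 in iWAT and 1039 to 1831 in eWAT. Ucp1, the uncoupling protein that makes heat, ranged from 0.121 to 66.8 CPM (median 12.0) in iWAT and from 0 to 1.69 CPM (median 0.118) in eWAT. It was higher in iWAT in 6 of 6 mice but missed the threshold (log2FC 5.20 ± 1.24, adjusted p = 0.0614), with the 6 iWAT values spread widely. With the 4 libraries left out, 7 of the list were called in the 2 pairs. With the covariates 5 were higher and 1 was lower. The count was 4 without wt replicate 1 and 5 without ko replicate 1 or ko replicate 2. Without wt replicate 2, 3 were called and Cox8b was not among them (adjusted p = 0.059).

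Of 94 nuclear respiratory chain genes tested, 84 had a positive log2FC (median 0.21), and only Cox8b was called, or 1.06% against 2.44% of all genes. Without the 4 libraries 17 were called higher in the 2 pairs and none lower, and unpaired 21 were higher and 1 lower. With the covariates the median was -0.24, with 1 higher and 6 lower. None of the 13 mitochondrially encoded genes was called by edgeR over all 6 pairs (median log2FC 0.62), while 1 was called higher without wt replicate 3, 4 by DESeq2, 2 in the 2 pairs free of the 4 libraries, 4 in the unpaired fit without them and 4 without the lymph node libraries.

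No core adipocyte gene passed edgeR's test in either direction (0 of 21, against 2.44% and 2.47% of all genes, median log2FC -0.15). Adipoq, adiponectin, ranged from 1131 to 2680.4 CPM (median 2355) in iWAT and from 1308 to 3014 CPM (median 2589) in eWAT (adjusted p = 0.835). Fabp4, the fatty acid binding protein of adipocytes, ranged from 5785 to 15204 CPM (median 13858) in iWAT and from 7207 to 16026 CPM (median 13955) in eWAT (adjusted p = 0.906). Lep, leptin, ranged from 89.9 to 601 CPM (median 378) in iWAT and from 251 to 1092 CPM (median 853) in eWAT and was lower in iWAT in 6 of 6 mice without passing the threshold (log2FC -1.12 ± 0.32, adjusted p = 0.0977). With the 4 libraries left out, 2 were called higher in the 2 pairs, DESeq2 called 1 higher and 1 lower, and with the covariates 10 were lower (median -1.13).

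The calls among genes of fatty acid synthesis changed with the libraries used. Of 19 tested only Elovl6, the elongase of long-chain fatty acids, was called, against 2.44% of all genes higher, and DESeq2 called 8 higher and 1 lower. Elovl6 ranged from 39.3 to 402 CPM (median 249.7) in iWAT and from 26.6 to 63.7 CPM (median 33.996) in eWAT (log2FC 2.53 ± 0.39, adjusted p = 0.0137). Acly, ATP citrate lyase, ranged from 434 to 2860.4 CPM (median 1746) in iWAT and from 342 to 850.0 CPM (median 545) in eWAT (log2FC 1.61 ± 0.37, adjusted p = 0.0533), and Fasn, fatty acid synthase, ranged from 2492 to 21473 CPM (median 13110.5) in iWAT and from 1346 to 9500.1 CPM (median 4676) in eWAT (log2FC 1.39 ± 0.56, adjusted p = 0.219). The lowest iWAT value of Acly and of Elovl6 was that of wt replicate 3. Without the 4 libraries 9 of 20 were called higher in the 2 pairs, with Acly at a log2FC of 2.17 (adjusted p = 0.0148), and without the lymph node libraries 4. Without wt replicate 3 the count was 5, and without wt replicate 2 none was called, Elovl6 included (adjusted p = 0.059).

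**Figure D4:**
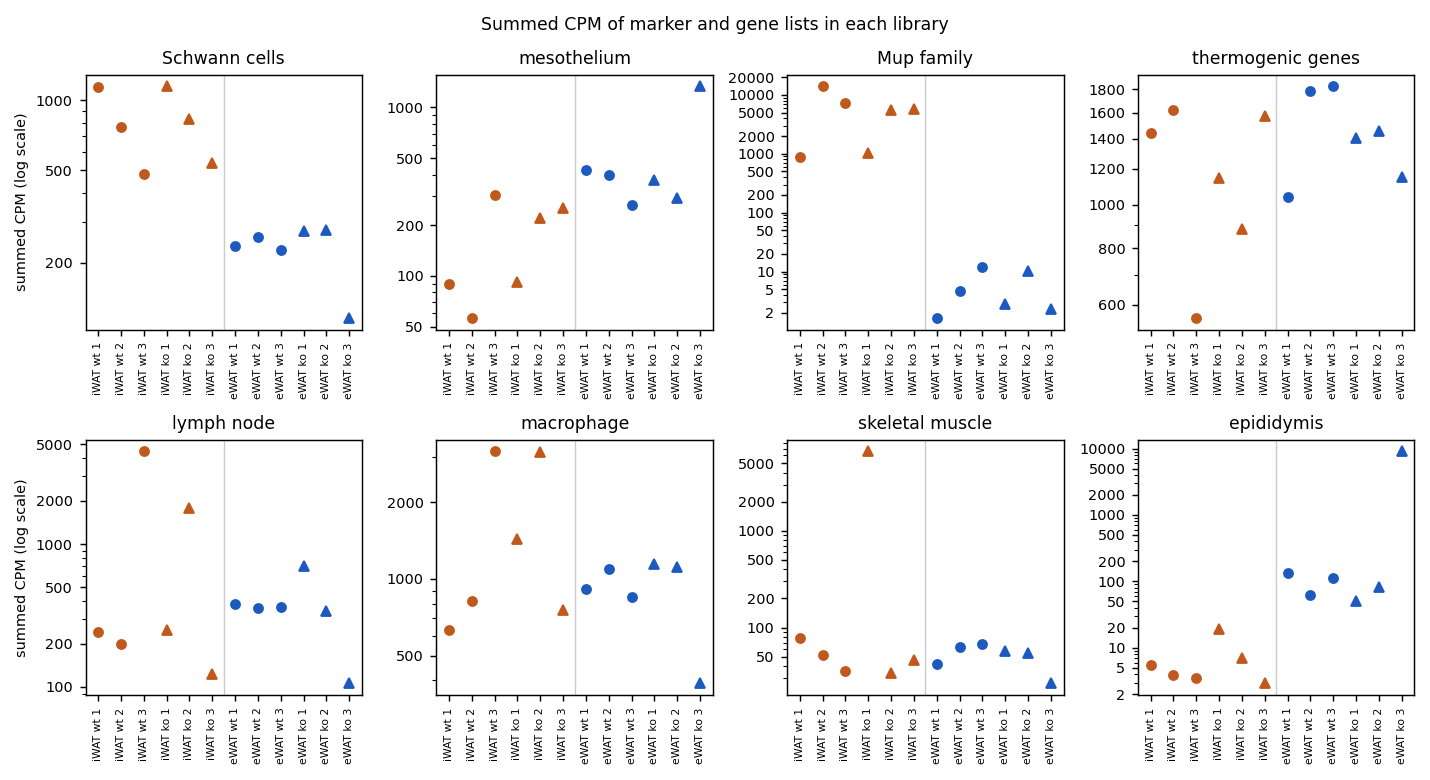
Summed TMM-scaled CPM (vertical axis, log scale) of 8 gene lists in each of the 12 libraries (horizontal axis), circles for wt and triangles for ko. Schwann cell and Mup sums are higher and mesothelium sums mostly lower in iWAT, and single libraries stand apart in the lymph node, macrophage, skeletal muscle and epididymis panels, as iWAT of ko replicate 1 does with 6605 CPM of muscle markers.

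Of 30 secreted adipokines and related factors, 5 were lower in iWAT and none higher by edgeR paired by mouse (median log2FC -0.15), against 2.47% of all genes lower, while DESeq2 called 10 lower and 3 higher. Agt, angiotensinogen, the precursor of angiotensin (chr8:124556534-124569706, minus strand), ranged from 337 to 698 CPM (median 492) in eWAT and from 7.09 to 32.6 CPM (median 20.2) in iWAT (log2FC -4.85 ± 0.36, adjusted p = 0.00103). Npr3, the clearance receptor of natriuretic peptides, ranged from 300.4 to 927 CPM (median 498) in eWAT and from 30.5 to 328 CPM (median 108) in iWAT (log2FC -2.29 ± 0.36, adjusted p = 0.0151). Agt did not overlap between depots, and Npr3 did. The growth factor Fgf1 (-1.74) and agouti, the melanocortin receptor antagonist listed under the symbol a (-3.26), were called lower as well. In the 2 pairs free of the 4 libraries 3 were higher and 4 lower. Further genes with clear separation lower in iWAT and outside the lists were Adcyap1r1, the receptor of the neuropeptide PACAP (-1.86), Rhbdl3, a rhomboid-like membrane protein (-2.46), Rab15, a small GTPase of endosomes (-3.59), Syt2, a synaptotagmin (-4.26), and Atp6v0e2, a subunit of the proton-pumping vacuolar ATPase (-2.66).

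Stromal genes were called in both directions. Of 27 progenitor genes, 5 were higher in iWAT and 1 lower, against 2.44% and 2.47% of all genes (median log2FC 0.08). The count fell to 2 higher and none lower without wt replicate 2 and to 3 and none without ko replicate 2, and DESeq2 called 9 higher and 3 lower. Pi16 and Cd55, markers of interstitial progenitors, had log2FC of 2.40 and 2.0. Pi16 ranged from 36.4 to 556 CPM (median 62.2) in iWAT and from 6.19 to 42.8 CPM (median 17.2) in eWAT (log2FC 2.40 ± 0.31, adjusted p = 0.00713), and its highest iWAT value was that of ko replicate 1. Cd55, which shields cells from complement, ranged from 39.3 to 126 CPM (median 52.6) in iWAT and from 6.33 to 25.3 CPM (median 16.6) in eWAT (log2FC 2.0 ± 0.30, adjusted p = 0.0126). The proteoglycan Cspg4 (1.90), the fibroblast protease Fap (1.54) and Ly6a, or Sca-1 (0.94), were also higher, and Fmo2, a flavin monooxygenase, was lower (-1.10). Pdgfra, the receptor that marks most progenitors, had a log2FC of 0.72 (adjusted p = 0.0544). In the 2 pairs free of the 4 libraries 3 were higher and 2 lower.

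Of 38 collagen genes, 7 were higher in iWAT and 4 lower, against 2.44% and 2.47% of all genes (median log2FC 0.20). Fibril-forming chains made up 6 of the 7. Col1a1 ranged from 877 to 3918 CPM (median 1227) in iWAT and from 176 to 413 CPM (median 362) in eWAT (log2FC 2.15 ± 0.26, adjusted p = 0.00560). Col1a2 had a log2FC of 1.45, Col3a1 of 1.33, Col5a2 of 0.77, Col11a1 of 3.14 and Col24a1 of 2.94. Col6a3, a chain of the beaded type VI collagen, ranged from 315 to 707 CPM (median 519.9) in iWAT and from 66.8 to 185 CPM (median 154) in eWAT (log2FC 1.84 ± 0.21, adjusted p = 0.00399). Its relatives Col6a5 and Col6a6 went the other way, and Col6a5 ranged from 60.3 to 242 CPM (median 114) in eWAT and from 0.822 to 17.1 CPM (median 3.18) in iWAT (log2FC -5.12 ± 0.79, adjusted p = 0.0148). The basement membrane chains Col4a5 (-1.40) and Col4a6 (-2.77), which are neighbours on the X chromosome, were lower. In the 2 pairs free of the 4 libraries 2 were higher and 4 lower, and the 11 calls fell to 2 without wt replicate 2, 5 without ko replicate 1, 6 without wt replicate 1 and 7 without ko replicate 2. DESeq2 called 11 higher and 6 lower, and of the 31 with at least 10 counts in every library 5 were higher and 5 lower.

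Of 18 metalloproteinases and inhibitors, 4 were higher in iWAT and 2 lower, against 2.44% and 2.47% of all genes (median log2FC 0.32). Without wt replicate 3, ko replicate 1 or ko replicate 2 the count was 3 higher and none lower, and the lower calls were lost without wt replicate 1 or 2 as well. Mmp27, a neighbour of Mmp3 on chromosome 9, ranged from 1.92 to 6.22 CPM (median 3.64) in iWAT and from 0.564 to 1.03 CPM (median 0.812) in eWAT (log2FC 2.18 ± 0.24, adjusted p = 0.00382), and the gelatinase Mmp2 ranged from 148 to 349 CPM (median 173) in iWAT and from 61.5 to 100.2 CPM (median 91.5) in eWAT (log2FC 1.26 ± 0.18, adjusted p = 0.0117). Neither overlapped between depots. The inhibitor Timp4 ranged from 115 to 413 CPM (median 316) in eWAT and from 39.7 to 179.7 CPM (median 103) in iWAT (log2FC -1.56 ± 0.33, adjusted p = 0.0443), and its depots overlapped. Ctsk, cathepsin K, a collagen-degrading cysteine protease outside the list, ranged from 44.1 to 78.2 CPM (median 66.9) in iWAT and from 13.5 to 27.1 CPM (median 23.0) in eWAT (log2FC 1.55 ± 0.08, adjusted p = 0.000375). In the 2 pairs free of the 4 libraries 2 of the list were higher and 1 lower. Of the 13 members with at least 10 counts in every library 2 were higher and 2 lower.

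Among 37 Wnt pathway genes 5 were higher in iWAT and 6 lower, against 2.44% and 2.47% of all genes (median log2FC -0.05), and DESeq2 called 10 higher and 12 lower. Of the 27 with at least 10 counts in every library 2 were higher and 6 lower. Axin2, a feedback inhibitor that Wnt signalling turns on, ranged from 53.7 to 113 CPM (median 77.6) in eWAT and from 16.1 to 33.98 CPM (median 19.4) in iWAT (log2FC -1.83 ± 0.12, adjusted p = 0.000592). Rspo1, a secreted amplifier of Wnt signals, ranged from 6.02 to 28.4 CPM (median 17.9) in eWAT and from 0.752 to 3.18 CPM (median 1.44) in iWAT (log2FC -3.49 ± 0.38, adjusted p = 0.00339). In both genes every iWAT library was under every eWAT library. The ligand Wnt2b (-1.66), the R-spondin receptor Lgr4 (-1.17), the receptor Fzd5 (-0.72) and the secreted inhibitor Sfrp1 (-2.14) were lower as well. The higher genes were 4 secreted inhibitors, Sfrp2 (1.65), Sfrp4 (2.93), Frzb (3.18) and Sostdc1 (4.99), and the R-spondin receptor Lgr5 (2.91). Sostdc1 ranged from 2.84 to 6.42 CPM (median 5.16) in iWAT and from 0 to 0.439 CPM (median 0.115) in eWAT (log2FC 4.99 ± 0.77, adjusted p = 0.0147). With the 4 libraries left out, 1 was higher and 3 lower in the 2 pairs, and the 11 calls fell to 3 without wt replicate 2, 5 without ko replicate 1, 6 without wt replicate 1 or ko replicate 2 and 7 without wt replicate 3.

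Of 45 genes of the BMP and TGF-beta families 3 were higher in iWAT and 5 lower, against 2.44% and 2.47% of all genes (median log2FC -0.25). The count was 3 lower and none higher without wt replicate 2, 2 higher and 3 lower without ko replicate 2 and 3 higher and 10 lower without ko replicate 3, and DESeq2 called 4 higher and 12 lower. Nog, noggin, an antagonist of BMPs, ranged from 2.70 to 9.07 CPM (median 4.03) in eWAT and from 0.261 to 0.421 CPM (median 0.315) in iWAT (log2FC -3.70 ± 0.30, adjusted p = 0.00129). Bmper, a secreted BMP-binding protein, ranged from 76.2 to 114 CPM (median 90.1) in eWAT and from 19.2 to 43.6 CPM (median 35.8) in iWAT (log2FC -1.41 ± 0.21, adjusted p = 0.0119). Neither overlapped between depots. Fstl3 (-1.11), which binds activin, and Ltbp4 (-1.02), which stores TGF-beta in the matrix, were lower too. Fst, follistatin, the activin antagonist, ranged from 21.9 to 40.04 CPM (median 31.2) in iWAT and from 5.64 to 17.7 CPM (median 10.7) in eWAT (log2FC 1.52 ± 0.23, adjusted p = 0.0139), and Fstl1 (1.0) and the ligand Bmp3 (2.0) were higher, but with the covariates the log2FC of Bmp3 was -0.14. In the 2 pairs free of the 4 libraries 3 were higher and 6 lower.

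Of 20 retinoid genes 3 were lower in iWAT and none higher, against 2.47% of all genes lower (median log2FC -0.0021). Aldh1a1, which makes retinoic acid, ranged from 226 to 598 CPM (median 241) in eWAT and from 26.7 to 143 CPM (median 63.9) in iWAT (log2FC -2.19 ± 0.44, adjusted p = 0.0360), and Aldh1a2, a second enzyme of this step and also on the mesothelium list, ranged from 7.84 to 10.9 CPM (median 10.7) in eWAT and from 0.835 to 2.67 CPM (median 1.77) in iWAT (log2FC -2.53 ± 0.27, adjusted p = 0.00301). Neither overlapped between depots. Rarres1 had a log2FC of -2.74. Of 16 steroid hormone genes 3 were lower and none higher by edgeR paired by mouse, against 2.47% of all genes lower (median log2FC -0.05), and 1 was lower without wt replicate 1, wt replicate 2 or ko replicate 2. DESeq2 called 3 lower and 2 higher. Sult1e1, the sulfotransferase that inactivates oestrogens, ranged from 49.5 to 108 CPM (median 79.0) in eWAT and from 1.79 to 17.8 CPM (median 3.27) in iWAT (log2FC -4.27 ± 0.57, adjusted p = 0.00839). Cyp1b1 had a log2FC of -1.24. Sult1e1 was also on the list of epididymis markers, and the part of that tissue in its values was not tested. None of 9 adrenergic receptors was called by edgeR paired by mouse, against 2.44% and 2.47% of all genes, or by DESeq2, while 1 was called higher and 1 lower in the unpaired fit without the 4 libraries, and 1 lower both with the covariates and in the fit on all 18 libraries. Adrb3, the receptor through which noradrenaline drives lipolysis, ranged from 657 to 1678 CPM (median 1255) in eWAT and from 366 to 943 CPM (median 712) in iWAT (adjusted p = 0.228). With the 4 libraries left out, 4 retinoid genes were lower, and 1 steroid gene was higher and 2 were lower, in the 2 pairs.

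**Figure D5:**
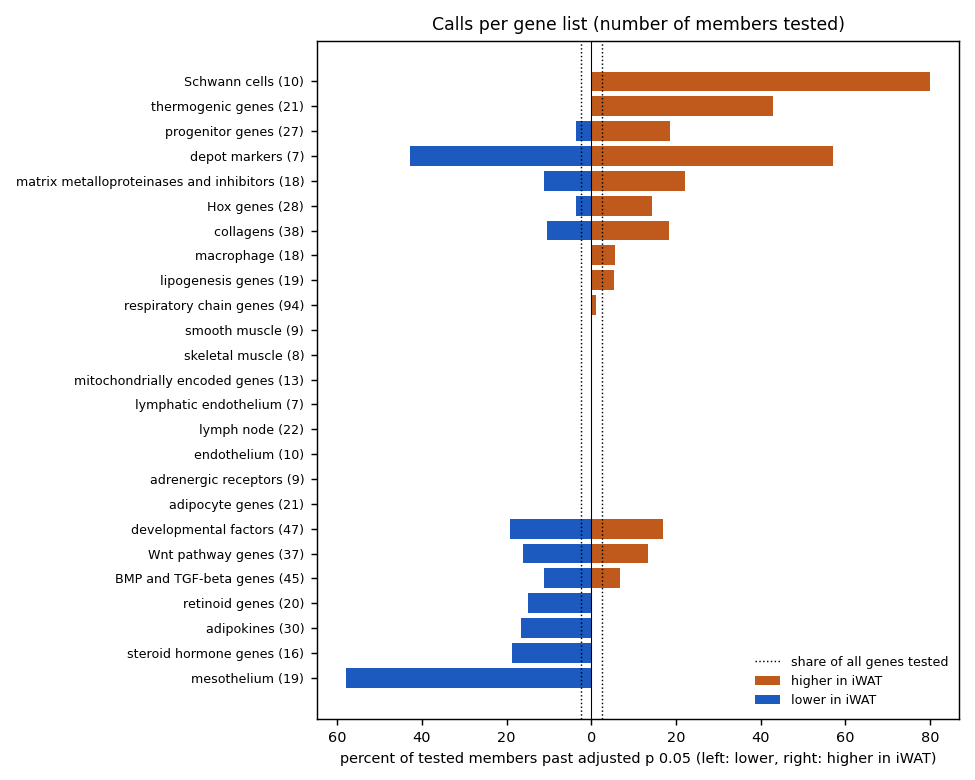
Share of the tested members of each list that passed an adjusted p of 0.05 (horizontal axis, percent), drawn to the right for higher and to the left for lower in iWAT, with the number tested beside each list name and dotted lines at the shares of all genes, 2.44% and 2.47%. Schwann cell markers (8 of 10) reach farthest to the right and mesothelium markers (11 of 19) farthest to the left among lists of cell types.

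Of 1513 lncRNAs tested 23 were higher in iWAT and 25 lower (3.17% called), against 379 and 379 of 14160 protein-coding genes (5.35%). Prdm16os, which starts 703 bases from Prdm16, ranged from 4.05 to 23.2 CPM (median 14.97) in iWAT and from 0.180 to 1.90 CPM (median 0.580) in eWAT (log2FC 4.49 ± 0.48, adjusted p = 0.00320). AI606473, 162 bases from Lhx8, ranged from 1.52 to 3.13 CPM (median 2.05) in iWAT and from 0 to 0.0586 CPM (median 0) in eWAT and was at least 13.3-fold higher (adjusted p = 0.00237). Dio3os, 896 bases from the gene of the deiodinase Dio3 that inactivates thyroid hormone, ranged from 3.72 to 7.497 CPM (median 7.01) in eWAT and from 0.352 to 0.935 CPM (median 0.789) in iWAT (log2FC -3.21 ± 0.32, adjusted p = 0.00264). These pairs moved together, with a log2FC of 1.02 for Prdm16 and -3.49 for Dio3. With a distance chosen after the values were seen, of the 48 called lncRNAs 28 lay within 10000 bases of a tested coding gene, and for 15 of them (53.6%) that nearest neighbour was called, in 15 of 15 in the same direction. Of 1465 lncRNAs not called, 1130 lay as close, and 49 (4.34%) had a called neighbour. In 8 of the 15 pairs the genes overlap. Without overlapping genes, 7 of 11 called lncRNAs had a called neighbour (63.6%), against 17 of 340 not called (5%). Gm9899 overlaps Kcnk3 and Gm11670 overlaps Axin2, and where 2 genes overlap, reads of one can be counted for the other, as the strand setting is not given in the sources used here. Gm31517, ranging from 2.98 to 10.2 CPM (median 4.51) in eWAT and from 0.162 to 0.748 CPM (median 0.342) in iWAT (log2FC -3.71 ± 0.32, adjusted p = 0.00156), had its nearest tested coding gene, Slc4a7, 215249 bases away, and Slc4a7 had a log2FC of -0.0030.

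None of 22 lymph node markers passed by edgeR paired by mouse, against 2.44% and 2.47% of all genes, although their median log2FC was 1.88. DESeq2 called 7 higher (6.43% of all genes), the fit with covariates 4 higher (8.32%) and 1 lower (7.61%) and the fit on all 18 libraries 21 of 24 higher (5.7%). As the lymph node sum was itself a covariate, the fit with covariates does not compare these markers between depots. The median was 0.04 in the 2 pairs without the 4 libraries, with none called. Of 18 macrophage markers only Cd9 (0.77), a tetraspanin found on many cells, was called higher (median log2FC 0.64), against 2.44% of all genes, and DESeq2 called 3, against 6.43%. With 1 mouse left out none was called by edgeR, except without wt replicate 1. Macrophage markers summed to 3163 and 3140 CPM in the iWAT libraries with lymph node markers and to 630 to 1438 CPM in the other iWAT and 390 to 1146 CPM in the eWAT libraries. With the 4 libraries left out, the median was -0.47 and 2 were called lower in the 2 pairs, and 5 unpaired. Csf1r, the receptor of the macrophage growth factor, and Lyz2, lysozyme of myeloid cells, had log2FC of 0.48 and 0.42 over all mice and of -0.73 and -0.85 in these 2 pairs. Markers of endothelium (10), lymphatic endothelium (7), smooth muscle (9), skeletal muscle (8), testis (3) and epidermis or mammary epithelium (3) were not called by edgeR paired by mouse. With ko replicate 3 left out, edgeR called 2 endothelial markers and 1 smooth muscle marker lower, and with ko replicate 1 left out 1 skeletal muscle marker. DESeq2 called 1 skeletal muscle marker lower and 1 epidermal marker higher. In the 2 pairs without the 4 libraries 2 smooth muscle, 1 lymphatic, 1 skeletal muscle and 1 testis marker were lower, unpaired 3 lymphatic, 2 endothelial, 1 smooth muscle and 1 skeletal muscle marker were lower, and with the covariates 7 of 10 endothelial, 2 smooth muscle, 1 lymphatic and 1 skeletal muscle marker were lower and 1 lymphatic and 2 skeletal muscle markers higher. The skeletal muscle sum was itself a covariate, so the fit with covariates does not compare its markers between depots. Of the 26 epididymis markers 2 were high enough to test, and Sult1e1 was the 1 called.

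The depot differences were then compared between genotypes. No gene had a tissue by genotype term past the threshold by edgeR (0% of 16799 genes, 268 at an unadjusted p under 0.05), and by DESeq2 6 genes did. These were Retnla, a secreted protein of alternatively activated macrophages (ko minus wt 1.80 on the log2 scale), F13a1 (1.69), Sik1 (1.08), Sbsn (1.39), Cd209f (1.88) and Lvrn (2.22), with adjusted p by DESeq2 from 2.23e-06 to 0.0471. Retnla ranged from 50.1 to 234 CPM (median 139) in eWAT and from 32.4 to 226 CPM (median 49.6) in iWAT, with log2FC of -2.01 in the wt mice and -0.22 in the ko mice, and its highest iWAT value was that of ko replicate 1. Fitted alone, 3 wt mice gave 3 calls (0.0178% of 16871 genes) and 3 ko mice none (0% of 17314 genes), with 1640 and 1791 genes at an unadjusted p under 0.05. DESeq2 called 617 and 1448 genes. Of its calls among the 16571 genes in both fits, 454 were shared, all with the same sign, which is 75% of the 605 wt calls and 32.7% of the 1389 ko calls. The depot markers went the same way in both genotypes, as for Tbx15 (7.56 in the wt mice and 7.12 in the ko mice), and so did Agt (-5.14 in the wt mice and -4.50 in the ko mice).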

How the data were processed

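RNA was sequenced after polyA selection. Per the labels and the study's methods, the authors used cutadapt on the reads and Salmon for quantification (GENCODE M22 transcripts, alone or joined with RNAcentral, GRCm38), and they deposited estimated counts per gene, stored as whole numbers; versions and the strand setting are not given in the sources used here. Names and positions came from GENCODE M21 (54094 of 54347 rows matched). The 12 libraries were fitted with edgeR 4.0.16 (quasi-likelihood F-test, mouse as a block, TMM scaling, filterByExpr by tissue, Benjamini-Hochberg adjustment over 16799 genes) in R 4.3.3, checked on simulated data. SE is the log2FC divided by the root of F. The block follows the mouse identifiers in the labels. Deviations of paired libraries from the mean of their tissue and genotype (3 libraries each) correlated by -0.131 to 0.327. P-values measure the spread between mice. A group with at most 3 counts in every library was set to 3 counts per library for a lower bound of the fold.

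Alternatives were limma 3.58.1 voom, DESeq2 1.42.0, other scaling, filters, mice, libraries and covariates. The text named the 15 genes of smallest p and the 10 of largest log2FC in each direction, 5 lncRNAs in each direction, cell type markers, up to 8 members of each list by p, and members singled out as not passing. Further list members and neighbours were named after their values were seen. The tissues, markers and lists were chosen with earlier results of these data known. Brown fat libraries entered 1 alternative only. Some genes that the naming rule covers are not reported here.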

Additional observations from a re-analysis of the deposited data

Results flagged for a closer look

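In 117 sets of 6 libraries of 1 tissue, summed lists or single genes, 15 had a highest or lowest library whose gap to the next, as a share of the whole range, was above Dixon's critical value for 6, and chance alone gives about 1 in 20. Most were in eWAT of ko replicate 3, the library with epididymis markers. It was highest in the sums of epididymis (gap 0.991, 9052 CPM against 50.4 to 136), testis (0.918), epidermis and mammary epithelium (0.89, 622 CPM against 8.64 to 75.8), mesothelium (0.851, 1338 CPM against 263 to 424), developmental factors (0.781, 1255 CPM against 642 to 776) and Hox genes (0.757, 1192 CPM against 469.7 to 645). It was lowest in Schwann cell markers (0.695, 116 CPM against 228 to 277) and in matrix metalloproteinases and inhibitors (0.646, 803 CPM against 1442 to 1791).

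In iWAT, ko replicate 1 was highest in skeletal muscle markers (0.993, 6605 CPM against 34.2 to 77.9) and in the sum of epididymis markers (0.748, 19.1 CPM against 2.93 to 7.003), and wt replicate 3 was lowest in developmental factors (0.679, 509 CPM against 642 to 705). Wt replicate 2 was highest in Mup10 (0.666, 206 CPM against 3.79 to 71.4) and Mup19 (0.63, 2129 CPM against 142 to 876). In eWAT, ko replicate 2 was highest in smooth muscle markers (0.728, 1324 CPM against 342 to 609) and in Hoxc10 (0.808, 3.34 CPM against 0.0584 to 0.69). These values were not tested further.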

How the results depend on the processing

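Without the mouse block 800 genes were called (398 higher, 402 lower), and 628 of the 825 genes called when paired by mouse were among them. With 18 libraries and no block the count was 1911. Unpaired, the wt mice gave 88 calls in place of 3 and the ko mice 0, as when paired.

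The 825 calls became 2185 with DESeq2, 1650 without the 4 libraries unpaired, 2675 with covariates for other tissues and no block, 485 without the lymph node libraries, 156 against a 2-fold change, 3 in wt mice and 0 in ko mice, and ranged from 255 (without wt replicate 2) to 828 when 1 mouse was left out. Limma voom gave 1104 and the other fits 577 to 818. The wt count was 617 with DESeq2 and ranged from 0 to 577 when a mouse was left out, leaving 2, and the ko count was 1448 with DESeq2. DESeq2 called 6 genes for the genotype term.

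Of 825 genes, 14 changed sign with covariates. Of 267 genes named in the lists, 6 changed sign with a call on either side: Bmp3 (-0.14) and Kdr (-0.54) with covariates, Lyve1 (-1.03) and Cd68 (-0.60) without the 4 libraries unpaired, and Csf1r (-0.73 paired, -0.67 unpaired) and Lyz2 (-0.85 paired, -0.92 unpaired) without them. The cause was not tested. Over 19 alternatives and 4976 values, 4250 stayed on the same side of the threshold, 483 lost the call and 235 gained it. The 4250 include sign changes of genes called in neither fit, which were not counted. For named genes with at most 3 counts in every library of the lower depot a bound of the fold is given. A fitted log2FC of such a gene goes beyond what its counts resolve.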
